A study of Mus musculus with 17 samples.

Results

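Bone morphogenetic proteins (BMPs) are secreted ligands of the transforming growth factor beta family. The genes described are Bmp2, Bmp3, Bmp4, Bmp5, Bmp6 and Bmp7, 6 of the 19751 genes measured on the arrays, chosen by name as the classical BMP ligands and each measured by exactly 1 probe set. They were followed in lungs of 17 Balb/c mice. The 6 saline mice were given saline both for sensitization and for challenge. The 5 isotype mice were sensitized to and challenged with ovalbumin (OVA), a model allergen, and treated with an isotype antibody. The 6 anti-RGMb mice had the same OVA exposure and a monoclonal antibody (mAb) against RGMb. The labels name no genetic change in any group and no antibody for saline mice, and anti-RGMb was given with OVA in every mouse that had it, so the OVA and isotype antibody parts of a difference from saline cannot be told apart. The age and sex of the mice are not given in the sources used here.

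A BMP dimer binds a pair of type I and type II receptor kinases, which activate Smad1, Smad5 and Smad9, and these enter the nucleus with Smad4 and switch on genes such as the Id family. RGMb is a membrane-anchored co-receptor that binds BMP2 and BMP4 and also neogenin (Neo1). In the lung, BMP4 is best known for its role in branching of the airway during development. The title of the series concerns this hub in allergic airways, and the question put to the ligand genes is whether their own mRNA moved with the allergen and with the antibody.

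Each mouse gave 1 array of whole lung RNA, so fewer cells of a type and less RNA per cell cannot be told apart in any value below. Experiment 1 held 9 mice (3 a group, numbered 1 to 3) and experiment 2 held 8 (3 saline, 2 isotype, 3 anti-RGMb, numbered 1-2, 2-2 and 3-2). Experiment is the name used here for these 2 sets of mice. The sample titles set them apart only by the form of the mouse number and do not call them experiments. The deposited intensities are linear and were on a higher scale in experiment 2 (array medians of 120.5 to 125 and of 362 to 386), so intensities are set side by side only within an experiment, and never between genes. Genes that define lung tissue were bright, with all 8 alveolar type 2 markers, among them the surfactant gene Sftpc, at percentile 87.3 of intensity or higher on every array.

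Since 3 of the 6 genes have a promoter in the RefSeq table (build GRCm38.p6), the 250 bases before their starts are shown to compare genes whose levels moved the same way. The Bmp4 window lies at chr14:46390670-46390919 on the minus strand, the Bmp5 window at chr9:75775115-75775364 on the plus strand and the Bmp6 window at chr13:38345466-38345715 on the plus strand. They are written 5′ to 3′ in the direction of the gene, and capitals mark CG dinucleotides, the sites of DNA methylation.
Bmp4: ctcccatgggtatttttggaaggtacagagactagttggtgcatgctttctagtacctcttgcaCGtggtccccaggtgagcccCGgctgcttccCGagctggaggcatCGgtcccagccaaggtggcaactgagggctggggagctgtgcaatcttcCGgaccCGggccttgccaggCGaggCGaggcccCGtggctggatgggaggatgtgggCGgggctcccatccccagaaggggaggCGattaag
Bmp5: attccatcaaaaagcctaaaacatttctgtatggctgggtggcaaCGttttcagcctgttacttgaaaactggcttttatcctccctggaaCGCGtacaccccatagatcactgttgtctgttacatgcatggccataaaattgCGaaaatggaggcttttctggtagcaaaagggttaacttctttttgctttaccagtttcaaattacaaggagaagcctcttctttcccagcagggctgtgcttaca
Bmp6: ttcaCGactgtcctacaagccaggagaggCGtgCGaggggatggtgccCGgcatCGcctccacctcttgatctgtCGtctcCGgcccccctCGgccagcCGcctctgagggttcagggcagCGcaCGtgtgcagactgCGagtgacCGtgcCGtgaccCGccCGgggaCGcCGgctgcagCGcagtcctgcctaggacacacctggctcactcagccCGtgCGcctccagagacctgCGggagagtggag
The windows are unlike in base composition. That of Bmp6 holds 22 CG dinucleotides with a GC content of 68.8%, that of Bmp4 11 with 63.2%, and that of Bmp5 4 with 42.8%. Over all 32851 windows of this length the median is 6 CG dinucleotides (quartiles 2 and 16) and 52.4% GC. On both strands, none of the 3 windows holds the GC-rich Smad site GGCGCC (in 9.59% of all windows), the AP-1 site TGANTCA (6.75%), the STAT6 site of TTC and GAA with any 4 bases between (5.85%) or the TATA box TATAAA (12.4%), which says only that these letters are not in these windows.

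Every BMP ligand gene was lower in isotype mice than in saline mice, and 5 of the 6 were higher again in anti-RGMb mice than in isotype mice. Bmp3 and Bmp6 were lower 2.06-fold and 2.04-fold and Bmp2, Bmp4, Bmp5 and Bmp7 by less. A gene was called changed at an adjusted p under 0.05 over all 19751 genes, on log2 levels with a term for the experiment, and values after ± are standard errors unless SD is written. In isotype minus saline, 6 of 6 were lower and 0 higher (median -0.56, against -0.04 over all genes), where 21.0% of all genes were called lower and 14.6% higher. In anti-RGMb minus isotype, 5 of 6 were higher and 0 lower (median 0.43, against 0.03), where 11.1% of all genes were called higher and 10.0% lower. In anti-RGMb minus saline, 2 of 6 were lower, 0 higher and 4 not past the threshold (median -0.22, against -0.01), where 2.24% of all genes were called lower and 4.26% higher. By exact two-sided permutation of the labels within experiments, each of the 6 genes had p = 0.005 in isotype minus saline, the smallest that 200 arrangements can give. The 3 comparisons share mice, so their values are given side by side and do not count as separate evidence.

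**Figure D1:**
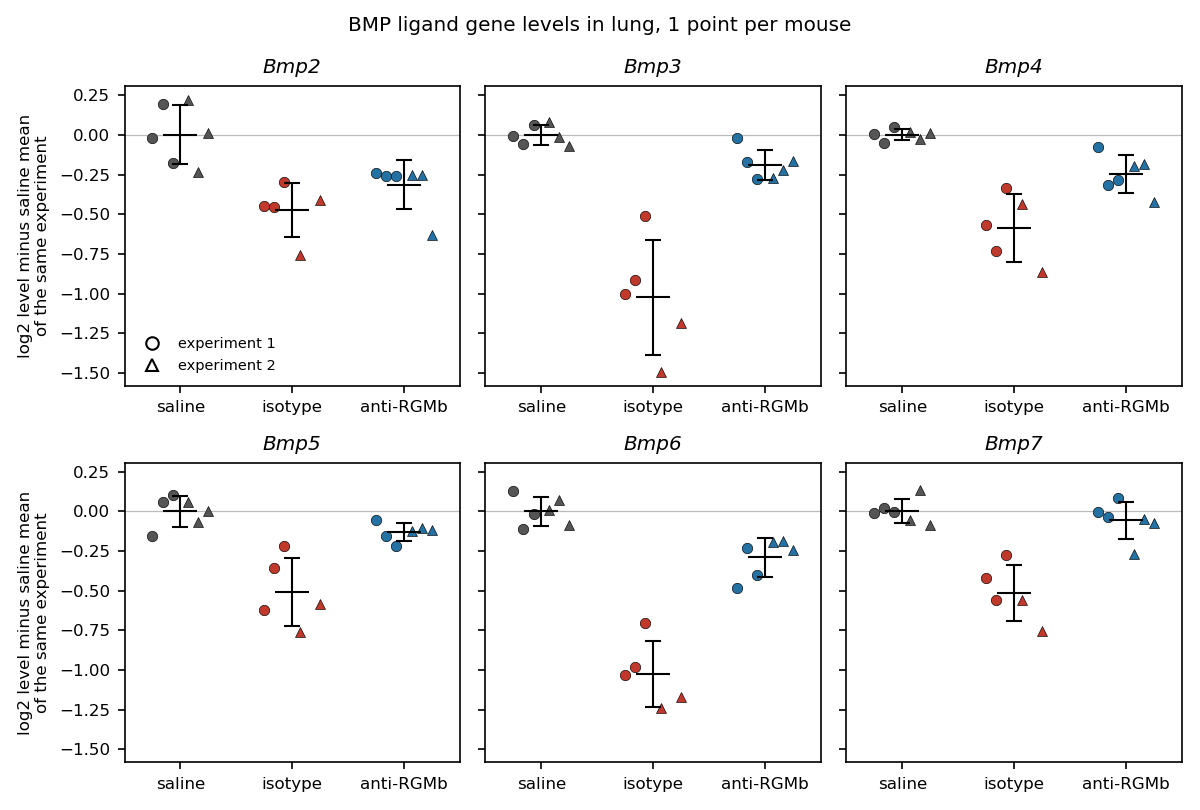
Level of each BMP ligand gene in each mouse, as log2 level minus the mean of the saline mice of the same experiment (vertical axis), by group, with circles for experiment 1 and triangles for experiment 2 and black bars for the mean and SD of a group (6 saline, 5 isotype and 6 anti-RGMb mice). All isotype mice lie below the saline mice of their experiment for all 6 genes. Anti-RGMb mice overlap saline mice for Bmp7 in both experiments and for Bmp3 and Bmp5 in experiment 1. How many of all genes separate the groups in this way was not counted, and 35.6% of all genes were called in isotype minus saline. The separation is therefore a description and not a trait particular to the ligand genes.

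BMP2 and BMP4 are close relatives and the ligands that RGMb is known to bind. The intensity of Bmp4 in experiment 1 was 2007, 1922 and 2061 in saline mice, 1348, 1203 and 1582 in isotype mice and 1892, 1601 and 1638 in anti-RGMb mice. In experiment 2 it was 5958, 5772 and 5918 in saline mice, 4356 and 3225 in isotype mice and 5144, 5167 and 4383 in anti-RGMb mice. All isotype mice were below all saline mice in both experiments, and the anti-RGMb mice lay between the other 2 groups, by narrow margins over isotype mice. Bmp4 was lower in isotype than in saline mice, at a log2 difference of -0.59 ± 0.08 (limma adjusted p = 1.5e-05), with -0.54 ± 0.11 in experiment 1 and -0.65 ± 0.13 in experiment 2. Against isotype mice, Bmp4 in anti-RGMb mice was higher by 0.34 ± 0.08 (limma adjusted p = 0.00525), with 0.32 ± 0.11 in experiment 1 and 0.38 ± 0.13 in experiment 2. Taken within an experiment, in a limma model with a mean for each group in each experiment, this second difference did not pass in experiment 1 (adjusted p = 0.125) and passed in experiment 2 (adjusted p = 0.0465). Against saline mice the difference left under the antibody was -0.25 ± 0.08 (limma adjusted p = 0.0676), which did not pass, although all anti-RGMb mice were below all saline mice in both experiments. It passed without isotype mouse 3 (limma adjusted p = 0.0389), 1-2 (0.0492) or 2-2 (0.0296), and the value itself stayed at -0.25. The fit uses 1 spread shared by all 3 groups, so isotype mice enter this p-value. Bmp4 varied most among them (SD 0.22, against 0.04 in saline and 0.12 in anti-RGMb mice).

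Bmp2, whose protein is best known as an inducer of bone, had an intensity between the 30.7th and the 47.0th percentile of an array. The intensity of Bmp2 in experiment 1 was 74.8, 87.0 and 67.1 in saline mice, 55.5, 55.3 and 61.9 in isotype mice and 64.2, 63.3 and 63.4 in anti-RGMb mice. In experiment 2 it was 351, 256 and 303 in saline mice, 178 and 226 in isotype mice and 253, 252 and 195 in anti-RGMb mice. Saline mice were highest, and in experiment 2 anti-RGMb mouse 3-2 lay between the 2 isotype mice. Bmp2 fell with OVA and isotype antibody, at a log2 difference of -0.48 ± 0.10 (limma adjusted p = 5.4e-04), with -0.40 ± 0.13 in experiment 1 and -0.58 ± 0.15 in experiment 2. Under the antibody the difference from isotype mice was 0.17 ± 0.10 (limma adjusted p = 0.249), with a 95% interval of -0.03 to 0.37, and did not pass. Leaving out isotype mouse 1-2 lowered it to 0.10 (limma adjusted p = 0.49), and leaving out anti-RGMb mouse 3-2 raised it to 0.22 (adjusted p = 0.0986). The difference from saline mice stood at -0.32 ± 0.09 (limma adjusted p = 0.0443). That call was lost in 11 of 17 fits with 1 mouse left out (anti-RGMb mouse 1, 1-2, 2, 3 or 3-2, isotype mouse 1 or 2, saline mouse 1, 1-2, 2 or 3-2), at -0.34 to -0.26 and adjusted p = 0.0507 to 0.118.

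BMP5, BMP6 and BMP7 form the second subgroup of ligands. BMP6 is known outside the lung as the signal by which the liver senses iron. The intensity of Bmp6 in experiment 1 was 1487, 1262 and 1349 in saline mice, 668, 690.2 and 836 in isotype mice and 977, 1159 and 1031 in anti-RGMb mice. In experiment 2 it was 3779, 3947 and 3538 in saline mice, 1588 and 1669 in isotype mice and 3276, 3299.8 and 3172 in anti-RGMb mice. The isotype mice were lowest in both experiments with no overlap with either other group, and anti-RGMb mice lay just under the saline mice, again without overlap. Bmp6 was lower in isotype than in saline mice, at a log2 difference of -1.03 ± 0.08 (limma adjusted p = 4.1e-08), with -0.91 ± 0.09 in experiment 1 and -1.20 ± 0.10 in experiment 2. In anti-RGMb mice it was higher than in isotype mice by 0.74 ± 0.08 (limma adjusted p = 1.5e-05), with 0.53 ± 0.09 in experiment 1 and 1.00 ± 0.10 in experiment 2. The second difference was larger in experiment 2 by 0.46 ± 0.14, which did not pass over all genes (adjusted p = 0.17, limma interaction). Against saline mice Bmp6 stayed lower under the antibody, at -0.29 ± 0.08 (limma adjusted p = 0.0386). This call was lost in 8 of 17 fits with 1 mouse left out (anti-RGMb mouse 1, 2 or 3, saline mouse 1, 1-2, 2-2, 3 or 3-2), at -0.31 to -0.25 and adjusted p = 0.0519 to 0.0988.

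Bmp5, the gene of the short-ear mouse mutant, gave a smaller change. The intensity of Bmp5 in experiment 1 was 928, 1077 and 1109.5 in saline mice, 673, 809 and 888 in isotype mice and 996, 928 and 890.3 in anti-RGMb mice. In experiment 2 it was 3442, 3154 and 3304 in saline mice, 1947 and 2205 in isotype mice and 3033, 3066 and 3035 in anti-RGMb mice. The highest isotype mouse and the lowest anti-RGMb mouse of experiment 1 were nearly equal, and anti-RGMb mice overlapped saline mice there, while in experiment 2 both isotype mice were well below the rest. Bmp5 was lower in isotype than in saline mice, at a log2 difference of -0.51 ± 0.08 (limma adjusted p = 4.1e-05), with -0.40 ± 0.10 in experiment 1 and -0.67 ± 0.11 in experiment 2. Anti-RGMb mice exceeded isotype mice by 0.39 ± 0.08 (limma adjusted p = 0.00161), with 0.26 ± 0.10 in experiment 1 and 0.56 ± 0.11 in experiment 2. Within experiment 1 the latter did not pass (adjusted p = 0.142, limma). The difference of anti-RGMb from saline mice was -0.13 ± 0.07 (limma adjusted p = 0.376), with a 95% interval of -0.29 to 0.03, and did not pass.

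Bmp7, whose protein is needed for kidney and eye development, had the smallest difference between saline and anti-RGMb mice. The intensity of Bmp7 in experiment 1 was 118, 121 and 119 in saline mice, 89.1, 81.2 and 98.6 in isotype mice and 119, 117 and 127 in anti-RGMb mice. In experiment 2 it was 425, 485 and 415 in saline mice, 299 and 262 in isotype mice and 366, 426 and 418 in anti-RGMb mice. Saline and anti-RGMb mice overlapped in both experiments, and all isotype mice lay below both groups. Bmp7 was lower in isotype than in saline mice, at a log2 difference of -0.52 ± 0.07 (limma adjusted p = 7.8e-06), with -0.42 ± 0.09 in experiment 1 and -0.65 ± 0.10 in experiment 2. It was higher in anti-RGMb than in isotype mice by 0.47 ± 0.07 (limma adjusted p = 1.1e-04), with 0.43 ± 0.09 in experiment 1 and 0.52 ± 0.10 in experiment 2. Anti-RGMb and saline mice differed by -0.06 ± 0.06 (limma adjusted p = 0.729), with a 95% interval of -0.19 to 0.08, which did not pass, and the sign was not the same in the 2 experiments (0.02 ± 0.09 in experiment 1 and -0.13 ± 0.09 in experiment 2). It was -0.02 without anti-RGMb mouse 1-2 and -0.01 without saline mouse 2-2.

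BMP3 is the atypical member, known for opposing the bone-inducing BMPs. The intensity of Bmp3 in experiment 1 was 754, 726 and 791 in saline mice, 377, 401 and 531 in isotype mice and 745, 672 and 624 in anti-RGMb mice. In experiment 2 it was 1519, 1420.2 and 1365 in saline mice, 508 and 630.3 in isotype mice and 1188, 1228 and 1276 in anti-RGMb mice. The isotype mice were lowest in both experiments without overlap, and the gap was wider in experiment 2, while saline and anti-RGMb mice overlapped in experiment 1 only. Bmp3 was lower in isotype than in saline mice, at a log2 difference of -1.04 ± 0.10 (limma adjusted p = 4.5e-07), with -0.81 ± 0.11 in experiment 1 and -1.34 ± 0.13 in experiment 2. It was higher in anti-RGMb than in isotype mice by 0.85 ± 0.10 (limma adjusted p = 2.7e-05), with 0.65 ± 0.11 in experiment 1 and 1.12 ± 0.13 in experiment 2. Both differences were larger in experiment 2, with interactions (experiment 2 minus experiment 1) of -0.53 ± 0.17 and 0.47 ± 0.17, and neither passed (limma adjusted p = 0.213 and 0.307). Anti-RGMb and saline mice differed by -0.19 ± 0.10 (limma adjusted p = 0.328), with a 95% interval of -0.40 to 0.02, which did not pass.

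**Figure D2:**
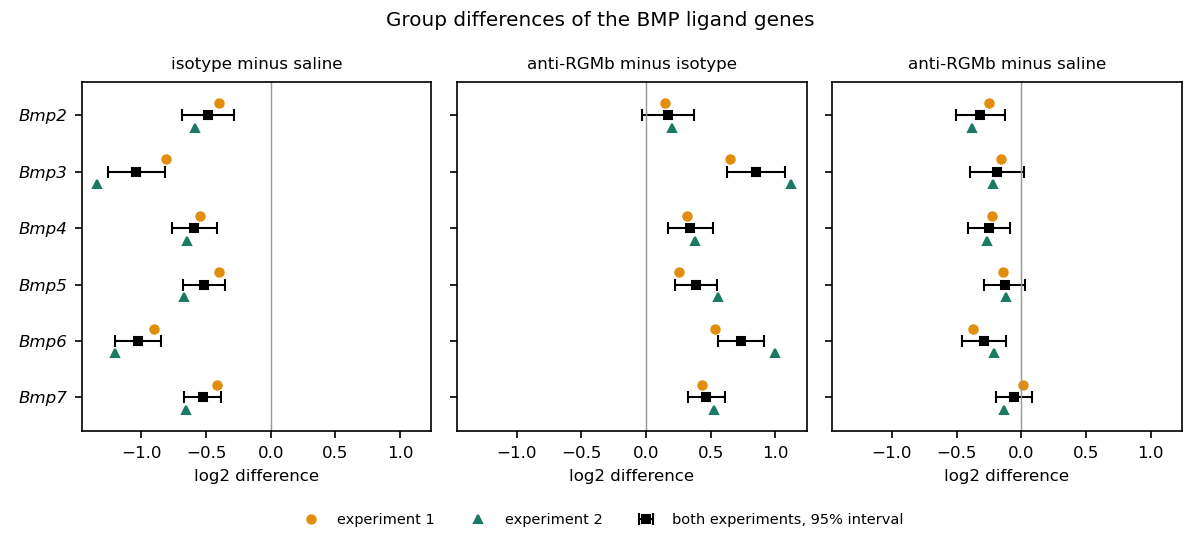
Log2 difference (horizontal axis) of each BMP ligand gene in the 3 comparisons, with black squares and bars for the estimate over both experiments and its 95% interval, orange circles for experiment 1 and green triangles for experiment 2. All 6 intervals lie below 0 for isotype minus saline, and 5 of 6 lie above 0 for anti-RGMb minus isotype, where the interval of Bmp2 crosses 0.

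The measured log2 changes of the 6 genes were not all of the same size. Bmp2 and Bmp7 had lower percentiles of intensity than Bmp3, Bmp4, Bmp5 and Bmp6 on every array. Whether the brightness of a probe set alters the size of its measured log2 change was not tested. The differences between genes below are therefore differences between probe set values. For each of the 15 pairs the difference of the 2 log2 levels was taken within each mouse and compared between groups by an exact two-sided permutation of the group labels within experiments, with p-values adjusted over the 15 pairs of a comparison. This test was chosen after the levels had been seen. In isotype minus saline, 8 of 15 pairs differed, and these were all pairs of Bmp3 or Bmp6 with Bmp2, Bmp4, Bmp5 or Bmp7. Bmp6 fell by more than Bmp4 (0.45 between them, with 0.36 and 0.55 in experiments 1 and 2, exact permutation p = 0.005 and adjusted p = 0.0107). Bmp3 fell by more than Bmp5 (-0.53, with -0.41 and -0.67, the same exact permutation p and adjusted p). The value of 0.005 is the smallest that the 200 arrangements can give. Leaving out 1 mouse moved a called difference by over 1.5 times once, that of Bmp3 minus Bmp4, from -0.45 to -0.28 without isotype mouse 1-2. Bmp3 and Bmp6 differed from each other by -0.01 (exact permutation adjusted p = 0.965), with opposite signs in the 2 experiments (0.10 and -0.14).

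In anti-RGMb minus isotype, 7 of 15 pairs differed, again with Bmp3 or Bmp6 in each. Bmp3 rose by more than Bmp2, Bmp4, Bmp5 and Bmp7, and Bmp6 by more than Bmp2, Bmp4 and Bmp5. Between Bmp6 and Bmp7 the difference was 0.26 (exact permutation p = 0.035, adjusted p = 0.0583) and did not pass. With each of the 11 mice of this comparison left out in turn, all 7 differences kept their sign, and the change of Bmp3 minus that of Bmp5 stayed between 0.43 and 0.51 and that of Bmp3 minus Bmp7 between 0.26 and 0.46. The number past an adjusted p of 0.05 was 0 without anti-RGMb mouse 1-2, 2-2 or 3-2 or isotype mouse 1-2, and 4 without anti-RGMb mouse 2 or isotype mouse 2-2. In these 6 fits 6, 5, 5, 7, 7 and 7 of 15 pairs had an unadjusted exact permutation p under 0.05, against 9 with all mice. Only 80 to 120 arrangements exist with a mouse left out, against 200, which raises the smallest p possible. With as few arrangements, each of the 8 pairs called in isotype minus saline had an unadjusted p under 0.05 in 11 of 11 fits. In anti-RGMb minus isotype, Bmp3 minus Bmp7 did so in 7 of 11 fits and Bmp4 minus Bmp6 in 6 of 11. In the other fits of these 2 pairs the exact permutation p was 0.05, which just missed the threshold. Without anti-RGMb mouse 2-2 their differences stayed at 0.39 and -0.39, and without isotype mouse 1-2 they were 0.26 and -0.26. The effect of a single mouse and that of fewer arrangements on these p-values cannot be told apart. Without isotype mouse 1-2 the exact permutation p of Bmp3 minus Bmp4 was 0.025, where 0.0125 is the smallest possible. In anti-RGMb minus saline, 0 of 15 pairs differed by exact permutation, with 1 pair at an unadjusted p under 0.05 (Bmp6 and Bmp7, p = 0.03).

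**Figure D3:**
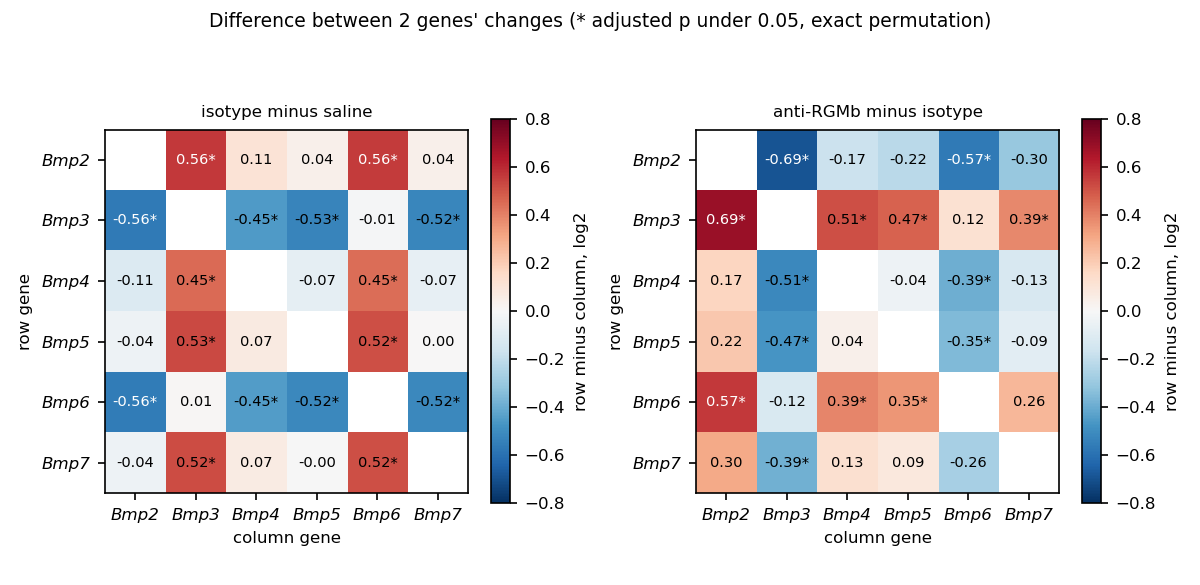
Difference between the log2 changes of a row gene and a column gene, for isotype minus saline and for anti-RGMb minus isotype, with red where the row gene's change is more positive, blue where it is more negative, and an asterisk where the exact permutation gives an adjusted p under 0.05 over 15 pairs. Rows of Bmp3 and Bmp6 are blue for isotype minus saline and mostly red for anti-RGMb minus isotype.

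Genes with the most similar pattern were sought by Pearson's r over the 17 arrays after the mean of each experiment was subtracted, so that differences between groups count in it, and all values are a description. Nearest to Bmp3 were Tmem100 (0.98), Pcolce2 (0.98), Pde8b (0.98), Fam189a2 (0.98) and Vldlr (0.98). Nearest to Bmp6 were Tns2 (0.99), Cyth3 (0.99), Fgf1 (0.99), Efnb2 (0.98) and Mcc (0.98), of which Efnb2 encodes ephrin-B2 of arterial endothelium and Fgf1 a fibroblast growth factor. For Bmp5 they were Gjc1 (0.98), Reck (0.98), Itga8 (0.98), Egflam (0.98) and Dpp4 (0.97), where Itga8 encodes an integrin chain of smooth muscle and fibroblasts and Reck an inhibitor of matrix metalloproteinases. For Bmp4 they were Asb13 (0.96), Abra (0.96), Nkd2 (0.95), Prelp (0.95) and Cryab (0.94). For Bmp2 they were Hoxb2 (0.93), Fnta (0.93), Inpp1 (0.93), Pank1 (0.92) and Nsun6 (0.92). For Bmp7 the first was Neo1, the gene of the RGMb receptor neogenin, in Neo1 (0.94), Notum (0.94), Cpm (0.93), Mall (0.93) and Cttnbp2 (0.93). Neo1 and Bmp7 were less alike within the groups, once the mean of each group in each experiment was removed (r = 0.38).

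Among the ligand genes themselves, Bmp3 was most like Bmp6 (r = 0.96, within groups 0.54) and Bmp5 (r = 0.96, within groups 0.76) over the same 17 arrays. Among all 19750 other genes, Bmp6 ranked 79th and Bmp5 96th by likeness to Bmp3, so many genes outside the family were as close. Bmp2 and Bmp7 were least alike (r = 0.56, within groups -0.34). Bmp2 and Bmp4, the closest relatives by sequence, had r = 0.71 and 0.04 within groups, and Bmp4 ranked 1950th by likeness to Bmp2. The arrays of an experiment share an intensity scale, and these values carry no test.

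Most other BMP and growth differentiation factor (GDF) ligands did not pass. Of 15 measured, 1 was lower and 1 higher in isotype than in saline mice (median -0.04), and 1 was higher and 1 lower in anti-RGMb than in isotype mice (median 0.08). The gene that rose with OVA and isotype was Gdf3 (1.15 ± 0.15), which fell under the antibody (-0.51 ± 0.15), and the gene that fell was Gdf10 (-0.31 ± 0.09), which was higher under the antibody (0.39 ± 0.09). Mstn, which encodes the muscle growth inhibitor myostatin, was at -0.14 ± 0.08 in isotype minus saline and Gdf11 at 0.12 ± 0.07, and neither passed.

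Receptor genes moved in the same directions as the ligand genes. Of 9, 8 were lower in isotype mice (median -0.45) and 6 were higher in anti-RGMb than in isotype mice (median 0.34). The endothelial receptor genes Eng (-0.61 ± 0.06 and 0.44 ± 0.06 in the 2 comparisons) and Acvrl1 (-0.64 ± 0.07 and 0.40 ± 0.07) were among them, as were the betaglycan gene Tgfbr3 (-0.78 ± 0.08 and 0.55 ± 0.08) and the type I receptor gene Bmpr1a (-0.48 ± 0.08 and 0.34 ± 0.08). Of 4 RGM and neogenin genes, 3 were lower in isotype mice and the same number higher under the antibody, with Rgma at -0.46 ± 0.07 and 0.24 ± 0.07, Rgmb at -0.43 ± 0.05 and 0.31 ± 0.05 and Neo1 at -0.52 ± 0.06 and 0.47 ± 0.06. Of 4 Smad genes of the pathway, 3 were lower and then 3 higher, with Smad9 moving most (-0.93 ± 0.12 and 0.62 ± 0.12), and Smad1 passed in neither (-0.05 ± 0.05 and 0.05 ± 0.05).

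Of 11 direct target genes of BMP signalling, 8 were lower in isotype than in saline mice (median -0.43) and 7 higher in anti-RGMb than in isotype mice (median 0.29). Hey1 (-0.85 ± 0.09 and 0.54 ± 0.09), Id3 (-0.75 ± 0.09 and 0.41 ± 0.09), Id1 (-0.32 ± 0.07 and 0.29 ± 0.07), the decoy receptor gene Bambi (-0.65 ± 0.08 and 0.38 ± 0.08) and the inhibitory Smad6 (-0.78 ± 0.11 and 0.55 ± 0.11) passed in both, and Id2 passed in neither (0.08 ± 0.06 and -0.10 ± 0.06). Antagonists and extracellular modulators went both ways, with 8 of 16 lower and 1 higher in isotype mice. Chrdl1, a chordin-like BMP antagonist, was lower and then higher (-1.42 ± 0.16 and 0.94 ± 0.16), as were Crim1 (-0.67 ± 0.06 and 0.50 ± 0.06) and Twsg1 (-0.60 ± 0.06 and 0.38 ± 0.06), while Fst, which encodes the activin and BMP trap follistatin, was higher (1.03 ± 0.12) and then lower (-0.50 ± 0.12). Among 6 proteases that process ligands or chordin, Furin rose (0.40 ± 0.05) and fell under the antibody (-0.33 ± 0.05), and Pcsk6 went the other way (-0.45 ± 0.07 and 0.23 ± 0.07).

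**Figure D4:**
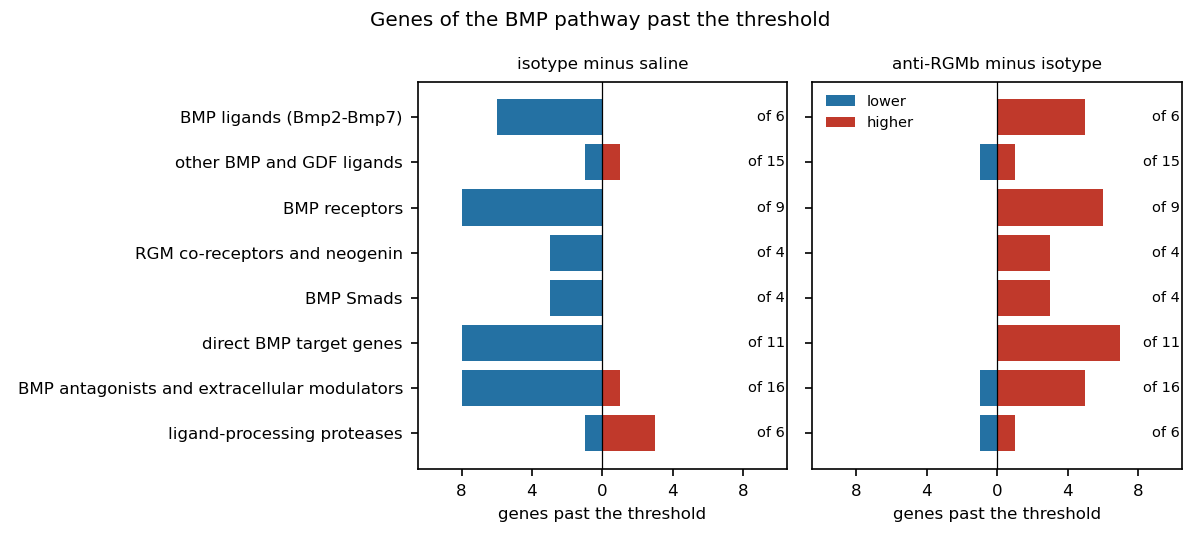
Number of genes past the threshold in each group of BMP pathway genes (horizontal axis), lower to the left in blue and higher to the right in red, with the number measured at the right edge. For isotype minus saline, 6 of 6 ligand genes and 8 of 9 receptor genes lie on the lower side, and for anti-RGMb minus isotype 5 of 6 and 6 of 9 lie on the higher side.

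Markers of cell types moved with the ligand genes. All 10 endothelial markers were lower in isotype mice (median -0.47) and 9 were higher in anti-RGMb than in isotype mice (median 0.36). Their summed intensity, as log2 difference from the saline mice of the same experiment, was -0.52 ± 0.13 SD over 5 mice (range -0.67 to -0.32) in isotype mice, -0.15 ± 0.08 SD over 6 mice (range -0.28 to -0.09) in anti-RGMb mice and -0.05 to 0.05 in saline mice. The 8 alveolar type 1 markers gave -0.48 ± 0.11 SD over 5 mice (range -0.57 to -0.29) in isotype mice and -0.16 ± 0.05 SD over 6 mice (range -0.22 to -0.09) in anti-RGMb mice, and 7 of them were lower in isotype mice. The 6 ciliated cell markers, of which 6 were lower in isotype mice, gave -0.43 ± 0.19 SD over 5 mice (range -0.60 to -0.19) and -0.08 ± 0.13 SD over 6 mice (range -0.21 to 0.12), and the 5 club cell markers, of which 3 were lower, -0.44 ± 0.14 SD over 5 mice (range -0.58 to -0.29) and -0.07 ± 0.10 SD over 6 mice (range -0.23 to 0.08). The brightest genes of a list weigh most in a summed level. Over the single club cell genes the median was -0.16 in isotype minus saline, with values from -1.52 to 0.42.

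By summed level, other resident cell markers moved less or varied more. Of 10 fibroblast markers, 5 were lower and 3 higher in isotype than in saline mice, and their summed level in isotype mice was -0.15 ± 0.18 SD over 5 mice (range -0.43 to -0.02). The median over the single fibroblast genes was -0.49 in isotype minus saline and 0.41 in anti-RGMb minus isotype, near the medians of the endothelial markers. Of 8 smooth muscle markers, 2 were lower, at -0.17 ± 0.13 SD over 5 mice (range -0.29 to 0.03). Of 8 alveolar type 2 markers, 4 were lower and 1 higher, at -0.08 ± 0.02 SD over 5 mice (range -0.10 to -0.04). Of 5 mesothelial markers, 2 were lower, at -0.84 ± 0.39 SD over 5 mice (range -1.28 to -0.44). All 6 markers of heart and striated muscle, a tissue that lung samples can carry, were lower in isotype mice and spread widely, from -0.66 to 1.24 in saline mice and from -2.51 to -0.30 in isotype mice. In anti-RGMb mice these summed levels were 0.03 (fibroblast), -0.08 (smooth muscle), -0.02 (alveolar type 2), 0.01 (mesothelial) and -0.43 (heart) on average.

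Most immune cell markers and all 5 proliferation genes were higher in isotype than in saline mice, the opposite way to the ligand genes. In anti-RGMb minus isotype, 4 of 7 leukocyte and 4 of 6 eosinophil markers were called lower and 0 higher. Of 7 leukocyte markers, 6 were higher in isotype than in saline mice, with a summed level of 0.56 ± 0.03 SD over 5 mice (range 0.52 to 0.59) in isotype mice and 0.32 ± 0.06 SD over 6 mice (range 0.23 to 0.37) in anti-RGMb mice. All 6 eosinophil markers were higher in isotype mice, at 1.45 ± 0.19 SD over 5 mice (range 1.13 to 1.65), against 0.92 ± 0.26 SD over 6 mice (range 0.63 to 1.38) in anti-RGMb mice. All 5 proliferation genes were higher in isotype mice, at 2.26 ± 0.27 SD over 5 mice (range 1.83 to 2.59), and all 5 were lower in anti-RGMb than in isotype mice, with a summed level of 1.16 ± 0.08 SD over 6 mice (range 1.03 to 1.26) from saline. The defining eosinophil genes Epx, Prg2, Ccr3 and Il5ra were under the 25th percentile of intensity on at least 1 array. The part of any of these cell types in the values of the ligand genes was not tested.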

How the data were processed

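Lung RNA of 17 mice was measured on Affymetrix Mouse Gene 1.0 ST arrays, per the labels, with 1 array for each mouse. The deposited values are intensities per probe set on a linear scale, which the authors made with RMA, per the submitters' processing notes (no version stated there). The linear scale was read from the values. Their log2 was taken here with no added constant, and precision is limited by how many arrays there are.

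Of 24679 probe sets, 21354 have 1 gene symbol, 1275 several and 2050 none in the platform annotation. Those with 1 symbol were used, with the brightest over all arrays for the 893 genes that have more than 1, which left 19751 genes. Each ligand gene was matched to the promoter table by symbol, and 3 of 6 matched.

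The test was limma 3.58.1 in R 4.3.3 (lmFit and eBayes, two-sided) on all 17 arrays, with group means and the experiment as a fixed term, and Benjamini-Hochberg adjustment over all genes. Fits of each group in each experiment gave within-experiment values and interactions. The fit was tested on simulated data. The labels do not say that mice are of separate litters, so p-values measure the spread between these mice.

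The members and gene lists were chosen with earlier results of these data known. Genes named outside the 6 are, for each pathway list, up to 4 with the smallest p in isotype minus saline, with Rgmb, Neo1, Id1, Id2 and Id3, and the 5 genes most like each member. Sftpc, Epx, Prg2, Ccr3 and Il5ra fall outside this rule: they come from the cell marker lists and were named after their values were seen. Alternatives were the mouse number as a block, other experiment terms, scalings, moderation, weights, a filter on dim genes, each experiment alone, and each mouse left out.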

Additional observations from a re-analysis of the deposited data

Results flagged for a closer look

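Bmp2 in anti-RGMb mouse 3-2 stood apart from its group, at -0.63 log2 units from the saline mean of its experiment against -0.26 to -0.24 in the other 5 anti-RGMb mice. Of 18 combinations of gene and group checked this way, 1 had such a mouse, and chance gives about 1 in 20. Without this mouse Bmp2 differed between anti-RGMb and isotype mice by 0.22 (limma adjusted p = 0.0986; without isotype mouse 1-2 instead, by 0.10, adjusted p = 0.49) and between anti-RGMb and saline mice by -0.26 (adjusted p = 0.0934).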

How the results depend on the processing

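In isotype minus saline, the 6 ligand genes kept direction and call in all 161 values other than those with no term for the experiment. In anti-RGMb minus isotype 158 of 161 values did, and in anti-RGMb minus saline 128 of 161, with 1 reversed (Bmp7, 0.0165 in experiment 1 alone, not past the threshold in either fit). With no term for the experiment, whose 2 intensity scales then enter the spread, limma called 0 ligand genes in each comparison (2, 1 and 0 at an unadjusted p under 0.05), and 35, 0 and 10 of all genes, with differences of Bmp2 -0.67, Bmp3 -1.11, Bmp4 -0.74, Bmp5 -0.68, Bmp6 -1.17 and Bmp7 -0.70 from saline in isotype mice, of Bmp3 0.93, Bmp4 0.49, Bmp5 0.55, Bmp6 0.88 and Bmp7 0.64 from isotype in anti-RGMb mice, and of Bmp2 -0.32 and Bmp6 -0.29 from saline in anti-RGMb mice. Experiment 1 alone gave 4295, 1020 and 550 genes in the 3 comparisons against 7034, 4180 and 1284, with 3 ligand genes in anti-RGMb minus isotype (not Bmp4, 0.32, or Bmp5, 0.26) and 0 in anti-RGMb minus saline (Bmp2 -0.25, Bmp6 -0.37; limma, 2 at an unadjusted p under 0.05). Experiment 2 alone gave 481 genes and 0 ligand genes in anti-RGMb minus saline (Bmp2 -0.38, Bmp6 -0.21; limma, 3 at an unadjusted p under 0.05), and Bmp4 did not pass in anti-RGMb minus isotype (0.38). Fewer mice enter these fits. With quantile normalization, 1 ligand gene passed in anti-RGMb minus saline (Bmp2, -0.36, adjusted p = 0.0431), and Bmp6 did not (-0.26, adjusted p = 0.0707). Bmp4 passed in anti-RGMb minus saline with array weights (-0.23, with 2541 genes in all), without the dimmest 40% of genes (-0.25) and with trend and robust moderation (-0.25). By exact permutation of the single gene, Bmp3 (-0.19), Bmp4 (-0.25) and Bmp5 (-0.13) had an unadjusted p under 0.05 (p = 0.01, 0.005 and 0.03). That threshold is looser than an adjusted p over all genes. With 1 mouse left out, the ligand genes called in anti-RGMb minus saline ranged from 0 to 3, Bmp2 from -0.36 to -0.26, Bmp4 from -0.28 to -0.21 and Bmp6 from -0.32 to -0.25, and the pairs that differ in anti-RGMb minus isotype from 0 to 8 (fewer arrangements then exist). Bmp2 is among the dimmest 40% and has no value with that filter. Subtracting array medians moved the share of calls that are higher in anti-RGMb minus saline from 65.6% to 54.6%.

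Mice of different groups share the numbers 1 to 3. With the number within an experiment as replicate block, limma called 6196, 3358 and 944 genes, and 6, 5 and 0 ligand genes, with Bmp2 at -0.32 (adjusted p = 0.0988) and Bmp6 at -0.29 (0.099) in anti-RGMb minus saline (3 ligand genes at an unadjusted p under 0.05). Residuals of same-numbered mice of different groups correlated at -0.60 to 0.30 across genes, above 0.1 in 3 of 16 pairs, and the same number was the best match in 5 of 32 checks. Residuals within so small a group constrain each other, so this check cannot decide whether mice were paired. The sample titles state no pairing, and mice were treated as sharing only a number.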
